A study of Mus musculus with 8 samples.

Results

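The genes described here are 10 genes of the epithelial-to-mesenchymal transition (EMT), chosen by name: Cdh1, Cdh2, Vim, Fn1, Snai1, Snai2, Zeb1, Zeb2, Twist1 and Spock1. All 10 were found among the 24346 gene symbols of the deposited tables. RNA of mouse uterine epithelium was sequenced in 8 libraries, 3 labelled control and 5 labelled Smad2/3 cKO (Smad2 flox/flox; Smad3 flox/flox; Pgr-cre), from lines on a mixed C57BL/6/129S6/SvEv background. In the cKO, the floxed parts, Smad2 exons 9 to 10 and Smad3 exons 2 to 3, were removed by a Cre knocked into the progesterone receptor gene. The sources used here give neither the genotype of the controls beyond that word, nor the age of the mice, nor how epithelium was separated from the uterus. Per the labels, Pgr-cre is active after birth in the uterus and also in ovary, oviduct, mammary gland and pituitary, and the labels do not say which uterine cell types carried the deletion.

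In EMT, epithelial cells loosen their junctions and take on features of migratory mesenchymal cells. Transcription factors of the Snail, ZEB and Twist families drive the change and are known to repress Cdh1, which encodes the adhesion protein E-cadherin, through E-box sequences. TGF-beta, whose signal SMAD2 and SMAD3 carry to the nucleus, is a classic inducer of EMT in cultured epithelium. The mesenchymal side is marked by N-cadherin (Cdh2), the filament protein vimentin (Vim) and the matrix protein fibronectin (Fn1). Spock1 encodes testican-1, a secreted proteoglycan of the SPARC family. Fibroblasts, smooth muscle, endothelium and leukocytes express several of these genes at rest, and the stromal RNA of each library is therefore given beside them.

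Levels are FPKM (fragments relative to transcript length and to all mapped fragments of the library), summed over the transcripts of a gene and scaled between libraries, and as levels per length they can be set side by side between genes. A log2 fold change is the difference, cKO minus control, of mean log2(scaled FPKM + 1), which understates the change of low genes. Estimated depth was 43.7 to 54.9 M mapped fragments per library. Smad2 was lower in cKO (3.58 ± 0.378 against 6.07 ± 0.342 scaled FPKM, SD, n = 5 and 3; limma adjusted p = 0.00550), and Smad3 did not pass (30.7 ± 8.97 against 28.2 ± 3.07; limma adjusted p = 0.837). Both gene-level values also hold fragments from exons that were not floxed. Epithelial markers were abundant, with a summed level of 12 markers of 5759 to 6634 scaled FPKM in control and 4731 to 7714 in cKO. None of the 12 was called, where 14.3% of all tested genes were. The most abundant among them, by the mean over all 8 libraries, were Krt19 (1765 ± 149 and 1507 ± 482; limma adjusted p = 0.478) and Cldn7 (628 ± 55.0 and 748 ± 121; 0.335). No label ties each library to an animal of its own, and a p-value therefore reflects the spread among the libraries, some of which may be technical.

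Of the 10 EMT genes, 4 met the filter on low values (at least 3 libraries at a scaled FPKM of 1 or more): Cdh1, Vim, Fn1 and Spock1. Spock1 was called lower in cKO and none of the 4 was called higher (limma with Benjamini-Hochberg adjustment over 11315 genes, adjusted p below 0.05). Of all tested genes 14.3% were called, 6.98% lower (790 genes) and 7.27% higher (823 genes), and 1 call among 4 is not read as a property of the group. With TPM, FPKM rescaled to 1 common sum per library, 1616 were lower and 512 higher, and the median log2 fold change of all genes moved from -0.0050 to -0.20. The other 6 were Cdh2 and 5 transcription factor genes. They stayed below 1 scaled FPKM in every library, with Snai1 in cKO 3 the exception. They were compared by exact permutation over the 56 ways to assign 3 and 5 libraries, where the smallest possible two-sided p is 0.0179, and none of the 6 had p below 0.05.

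**Figure D1:**
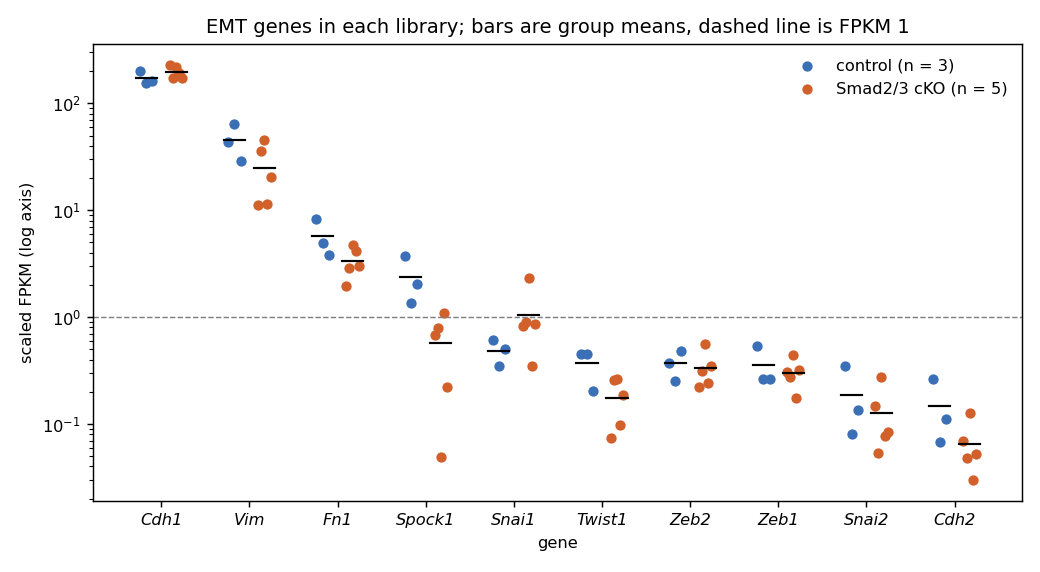
Scaled FPKM of the 10 EMT genes on a log axis, in order of the control mean, with 1 point per library, control in blue (n = 3) and Smad2/3 cKO in orange (n = 5), group means as black bars and a dashed line at 1. The cKO points of Spock1, from 0.0494 to 1.09, lie below its control points, from 1.36 to 3.69, and the groups overlap in the other 9 genes.

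Spock1 was the gene of the 10 that was called. Spock1 (chromosome 13, 57421195 to 57908332 on mm10) was at 3.69, 1.36 and 2.03 scaled FPKM in controls 1 to 3 and at 0.683, 0.795, 0.0494, 1.09 and 0.221 in cKO 1 to 5. Every cKO library lay below every control, with cKO 3 lowest and control 1 highest. The means were 2.36 ± 1.2 (SD, n = 3) and 0.568 ± 0.426 (SD, n = 5), 4.16-fold apart, with a log2 fold change of -1.09 ± 0.29 (SE; 95% interval -1.73 to -0.44; limma adjusted p = 0.0373; p = 0.0179 by exact permutation, its lower limit here). Groups without overlap in this direction were found in 12.9% of all tested genes. Spock1 met the filter through the 3 controls and cKO 4, so it was tested mainly because it was higher in control. The call was lost without control 1 (limma adjusted p = 0.12), control 2 (0.0640), control 3 (0.113), cKO 1 (0.0599) or cKO 5 (0.0721). The log2 fold change was then -0.82, -1.31, -1.13, -1.13 and -1.01.

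**Figure D2:**
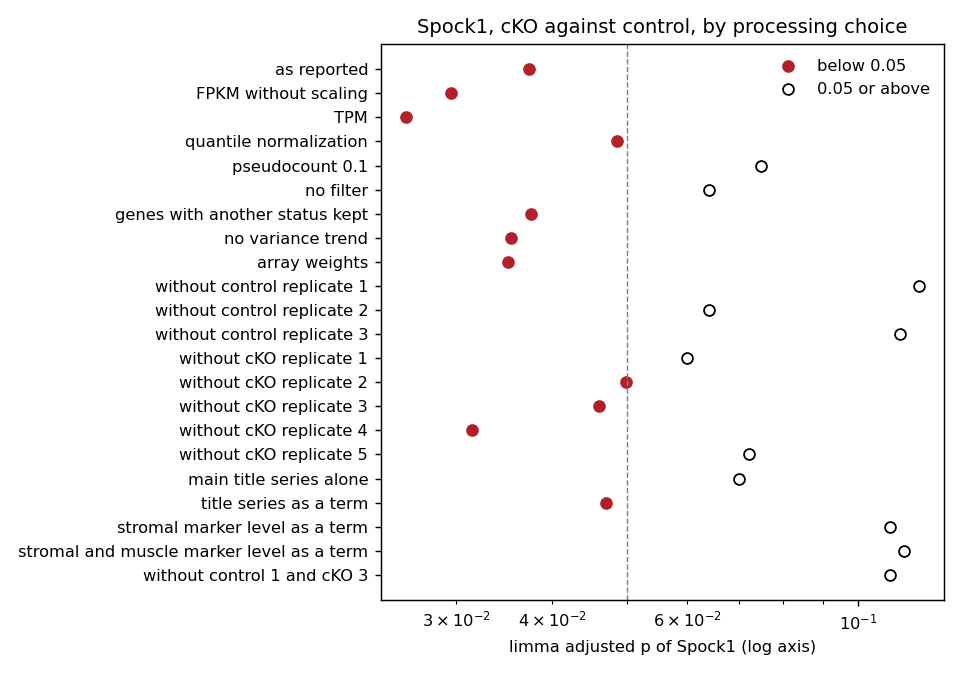
Limma adjusted p of Spock1 on a log axis as reported and under 21 alternatives, with filled points below 0.05 (dashed line) and open points at or above it. The alternatives run from 0.0259 to 0.12, and 10 of the 21 keep the call.

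The sequences before the starts of Spock1 and Snai1 are shown because these are the members whose windows hold the E-box letters that Snail and ZEB proteins are known to bind. They are the 250 bases before each start in RefSeq on GRCm38.p6, at chr13:57908333-57908582 on the minus strand for Spock1 and chr2:167537945-167538194 on the plus strand for Snai1, each written 5′ to 3′ along its gene. Capitals mark the letters CACCTG or their reverse complement CAGGTG. The third sequence is the 30 bases of Spock1 from base 21 to base 50 after the start, at chr13:57908283-57908312 on the minus strand, which hold its match at base 44.
Spock1, before the start: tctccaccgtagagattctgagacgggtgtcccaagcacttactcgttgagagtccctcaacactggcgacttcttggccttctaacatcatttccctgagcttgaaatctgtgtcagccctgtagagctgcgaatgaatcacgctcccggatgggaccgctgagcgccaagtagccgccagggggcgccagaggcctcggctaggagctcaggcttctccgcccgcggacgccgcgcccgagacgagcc
Snai1, before the start: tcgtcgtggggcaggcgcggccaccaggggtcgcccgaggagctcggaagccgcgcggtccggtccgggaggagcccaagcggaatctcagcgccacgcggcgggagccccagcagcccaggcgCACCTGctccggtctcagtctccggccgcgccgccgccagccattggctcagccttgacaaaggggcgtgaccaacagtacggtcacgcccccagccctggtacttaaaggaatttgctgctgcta
Spock1, after the start: agcggccggacgcgcggcggcggCAGGTGc
The RefSeq table matched 5 of the 10 genes (Vim, Zeb2, Snai1, Twist1 and Spock1) with 8 windows from 250 bases before to 50 after a start. CACCTG, on either strand, was found 126 bases before the start of Snai1 and 44 bases after that of Spock1, and not in the windows of the other 3 genes. Of 32851 such windows of all genes, 20.2% hold it. CAGAC, letters known from SMAD binding, was found on either strand in the window of Twist1, 9 bases before the start, and in 49.6% of all windows. Binding was not measured in these libraries.

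The tables list 5 transcripts of Spock1. The form of 4665 bases took the whole Spock1 value in 6 libraries, 88.4% in cKO 2 and 64.5% in cKO 3. The forms of 3131 and 3140 bases are listed at 0 in every library. The deposited intervals correspond to about 314 to 644 fragments of Spock1 in the controls and 7.41 to 241 in cKO, so the lowest value, in cKO 3, rests on few fragments. Its relative Spock2 did not pass (1.57 ± 0.0608 and 0.868 ± 0.716 scaled FPKM; limma adjusted p = 0.193); cKO 3 stood apart at 2.11, and without it Spock2 was called lower (-0.73; limma adjusted p = 0.0132). Spock2 was called in 2 of its 20 alternatives, and leaving out 1 library gave a limma adjusted p of up to 0.375. Spock3 was below 0.01 in every library. Both were named after their values were seen.

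Cdh1 (chromosome 8, 106603368 to 106670246) encodes E-cadherin, the calcium-dependent adhesion protein of epithelial junctions. It was at 203, 155 and 163 scaled FPKM in controls 1 to 3 and at 229.7, 172, 218, 190.3 and 174 in cKO 1 to 5. The groups overlapped, and control 1 lay above 3 of the 5 cKO libraries. The means were 174 ± 25.4 and 197 ± 26.1, with a log2 fold change of 0.18 ± 0.14 (95% interval -0.15 to 0.51; limma adjusted p = 0.415). The interval holds both signs, and with TPM or quantile normalization the sign turned (-0.025 and -0.076).

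Cdh2 (chromosome 18, 16588877 to 16809049) encodes N-cadherin, the cadherin of neural and many mesenchymal cells. It was at 0.264, 0.0684 and 0.111 scaled FPKM in controls 1 to 3 and at 0.0690, 0.0484, 0.126, 0.0299 and 0.0523 in cKO 1 to 5, the lowest mean of the 10 genes. Control 1 stood highest, and controls 2 and 3 lay within the cKO range (log2 fold change -0.10; exact permutation p = 0.107). The values rest on about 5.72 to 62.1 fragments per library, which limits what could be detected. Cdh1 exceeded Cdh2 by 767 to 2268 times in the controls and by 1724 to 6370 times in cKO, with overlapping ranges.

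Vim (chromosome 2, 13574311 to 13582826) encodes vimentin, the intermediate filament of mesenchymal cells and also of leukocytes and endothelium. It was at 43.9, 63.9 and 29.1 scaled FPKM in controls 1 to 3 and at 11.2, 35.9, 45.4, 11.4 and 20.5 in cKO 1 to 5. Of the cKO libraries, 1, 4 and 5 lay below every control, while 2 and 3 lay within the control range. The log2 fold change was -0.99 ± 0.48 (95% interval -2.08 to 0.10; limma adjusted p = 0.192; means 45.6 ± 17.5 and 24.9 ± 15.2). The ratio of Cdh1 to Vim was 4.62, 2.43 and 5.60 in controls 1 to 3, against 20.5, 4.79, 4.80, 16.7 and 8.48 in cKO 1 to 5, again with cKO 2 and cKO 3 inside the control range.

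Fn1 (chromosome 1, 71585473 to 71653234) encodes fibronectin, a matrix protein that cells grip through integrins. It was at 8.33, 4.96 and 3.81 scaled FPKM in controls 1 to 3 and at 1.97, 2.87, 4.75, 4.19 and 2.99 in cKO 1 to 5. Controls 1 and 2 lay above every cKO library, and control 3 lay below cKO 3 and cKO 4. The log2 fold change was -0.60 ± 0.26 (95% interval -1.20 to -0.0072; limma unadjusted p = 0.0478, adjusted p = 0.155; means 5.70 ± 2.35 and 3.35 ± 1.11). It did not pass after adjustment, and 31.5% of all tested genes had an unadjusted p below 0.05. Without control 1 the log2 fold change was -0.34 (limma adjusted p = 0.414).

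Fibronectin pre-mRNA is known for alternative inclusion of extra domains and of a variable segment, and the tables list 7 transcripts. The form of 7882 bases, 543 bases shorter than the longest, led in every library, at 52.9% to 70.2% of the Fn1 value in the controls and 45.7% to 77.6% in cKO. The form of 8152 bases was at 0%, 13.3% and 0% in controls 1 to 3 and at 11.9% to 33.6% in the 5 cKO libraries. The form of 7807 bases was at 19.8% to 29.8% in the controls, at 11.2% in cKO 2, at 18.5% in cKO 4 and at 0% in the other 3 cKO libraries. The longest form, of 8425 bases, was found in 2 controls and 3 cKO libraries, and 3 forms are listed at 0 throughout. These shares come from the division by Cufflinks of fragments between forms that overlap in most of their length, an exact 0 can be a failed estimate, and no test was made of them.

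The Snail genes encode zinc-finger repressors. Snai1 (chromosome 2, 167538227 to 167542811) was at 0.608, 0.350 and 0.4999 scaled FPKM in controls 1 to 3 and at 0.830, 0.891, 2.34, 0.352 and 0.866 in cKO 1 to 5. Of the cKO libraries 4 lay above every control, and cKO 4 lay beside control 2. The means were 0.486 ± 0.129 and 1.06 ± 0.750, a log2 fold change of 0.41 (exact permutation p = 0.196), on about 28.0 to 163 fragments. Without cKO 3 the log2 fold change was 0.21 (exact permutation p = 0.200).

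Snai2 (chromosome 16, 14705859 to 14709382), the relative also called Slug, was at 0.348, 0.0809 and 0.134 scaled FPKM in controls 1 to 3 and at 0.147, 0.0535, 0.274, 0.0774 and 0.0847 in cKO 1 to 5. Control 1 and cKO 3 were the highest of their groups, and the groups overlapped (log2 fold change -0.072; exact permutation p = 0.518). Without control 1 the log2 fold change was 0.023. The values rest on 5 to 34.2 fragments.

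The ZEB genes encode zinc-finger and homeodomain repressors. Zeb1 (chromosome 18, 5591860 to 5775468) was at 0.535, 0.261 and 0.266 scaled FPKM in controls 1 to 3 and at 0.306, 0.273, 0.441, 0.174 and 0.319 in cKO 1 to 5. Again control 1 and cKO 3 were the highest of their groups, and the groups overlapped (log2 fold change -0.053; exact permutation p = 0.625). Without control 1 the sign turned (0.040; exact permutation p = 0.524).

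Zeb2 (chromosome 2, 44983512 to 45113279) was at 0.373, 0.254 and 0.477 scaled FPKM in controls 1 to 3 and at 0.223, 0.316, 0.556, 0.243 and 0.349 in cKO 1 to 5. The groups overlapped (log2 fold change -0.035; exact permutation p = 0.768), and without control 3 the sign turned (0.022; exact permutation p = 0.952). In GENCODE M21 the antisense gene Zeb2os overlaps exons of Zeb2, as Gm10125 does those of Zeb1 and Apol7d those of Fn1. The sources used here do not state whether counting used strand. In the overlapping stretches, reads of these genes and of their partners therefore cannot be told apart.

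Twist1 (chromosome 12, 33957671 to 33959831), a basic helix-loop-helix factor, was at 0.452, 0.453 and 0.203 scaled FPKM in controls 1 to 3 and at 0.0743, 0.257, 0.263, 0.0976 and 0.187 in cKO 1 to 5. Controls 1 and 2 lay above every cKO library, and control 3 lay within the cKO range. The means were 0.369 ± 0.144 and 0.176 ± 0.0874, a log2 fold change of -0.22 (exact permutation p = 0.0893), on 6 to 39.5 fragments. Without control 3 it was -0.31 (exact permutation p = 0.0476, the smallest that 2 against 5 libraries allow).

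In the controls the order of levels ran from Cdh1 through Vim, Fn1 and Spock1 to Snai1, with no overlap between neighbours. Twist1, Zeb2, Zeb1, Snai2 and Cdh2 followed, and from Snai1 down each pair of neighbours overlapped. In cKO the mean of Spock1 was below that of Snai1, 0.568 against 1.06, with overlapping ranges. The ranges of Snai1 and Twist1, which overlapped in control, did not overlap in cKO.

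Stromal RNA was measured by 16 fibroblast markers that include none of the 10 genes, such as Dcn, Lum, Col1a1 and Pdgfra. Their summed level was 406, 228 and 221 scaled FPKM in controls 1 to 3, against 165, 199, 301, 156 and 144 in cKO 1 to 5. No marker was at 0 in all libraries, and Dpt was at 0 in at least 1. The sum leans on Fbln1, the most abundant marker in every library except cKO 3. Fbln1 was at 167, 99.2 and 126 in controls 1 to 3, and at 102.4, 100.4, 79.2, 102.2 and 85.9 in cKO 1 to 5. Fbln1 was thus lowest in cKO 3, where the sum was the highest of the cKO libraries. The mean log2 level of the 12 tested markers was 4.12, 3.22 and 3.02 in controls 1 to 3, against 2.68, 2.84, 3.72, 2.55 and 2.59 in cKO 1 to 5 (exact permutation p = 0.214). Control 1 and cKO 3 held the most stromal RNA of their groups. The difference in this level, cKO minus control, was -0.58 over all libraries and -0.26 without control 1 (exact permutation p = 0.571). Without cKO 3 it was -0.81 (exact permutation p = 0.0286, the smallest that this split of libraries allows). Of the 12, 11 had a negative log2 fold change, with a median of -0.55 against -0.0050 for all tested genes. Of the 12, 1 was called, where 14.3% of all tested genes were: Nr2f2, a nuclear receptor gene of uterine stroma (8.54 ± 1.09 and 5.47 ± 0.694; limma adjusted p = 0.0175). That call was lost in 5 of 22 alternatives, among them without control 1 or control 2 (highest limma adjusted p 0.0978). It was also lost in the 6 libraries whose titles share 1 number series (limma adjusted p = 0.0593). In bulk RNA, fewer stromal cells and less RNA per stromal cell cannot be told apart.

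**Figure D3:**
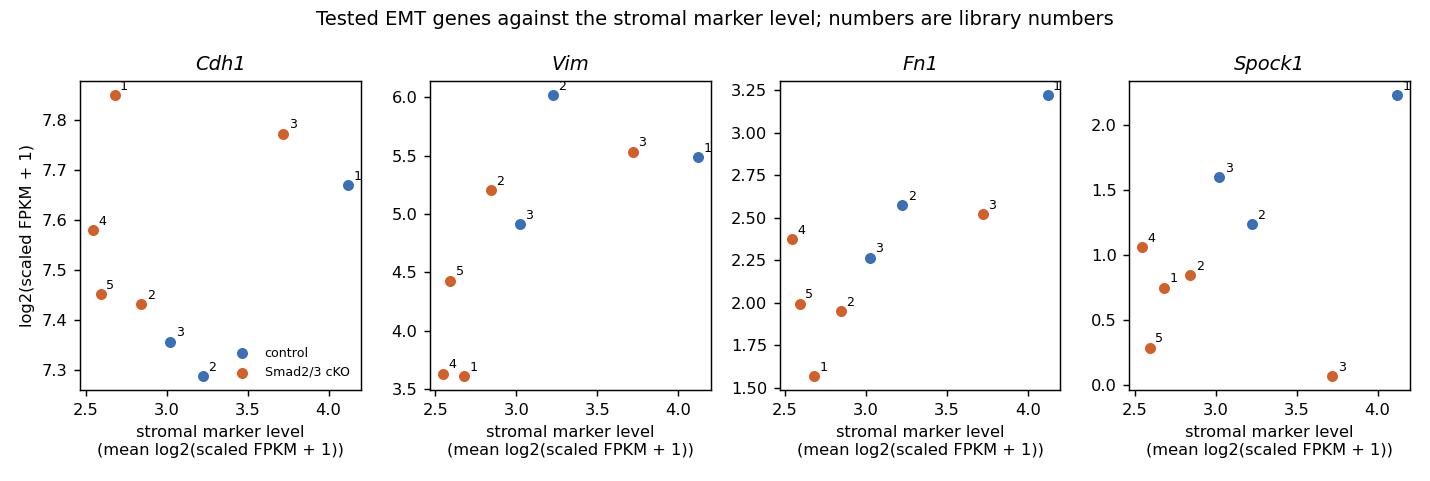
Level of the 4 tested EMT genes, as log2(scaled FPKM + 1), against the stromal marker level (mean of the same quantity over 12 fibroblast markers), with 1 point per library, control in blue and Smad2/3 cKO in orange, numbered as in the text. Control 1 and cKO 3 lie farthest right in each panel (4.12 and 3.72), and cKO 3 is the highest cKO library for Vim and Fn1 and the lowest of all for Spock1.

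The mesenchymal members were also set against the stromal level of their library. The Fn1 level minus the stromal level, both as log2(scaled FPKM + 1), was -0.77 ± 0.13 in control and -0.79 ± 0.42 in cKO. The same quantity was 2.02 ± 0.72 and 1.60 ± 0.59 for Vim, and -1.77 ± 0.30 and -2.27 ± 0.82 for Spock1, where cKO 3 stood at -3.65. For Cdh2, at 0.264 scaled FPKM or below in every library, it was -3.26 ± 0.47 and -2.79 ± 0.44. At levels this low Cdh2 adds little, and the quantity is close to the stromal level with its sign turned. The same holds for Spock1 in cKO 3, at 0.0494 scaled FPKM, where the stromal level was 3.72. Differences between these members were not tested. With the stromal level as a term in the fit, the log2 fold change was -0.47 for Vim (limma adjusted p = 0.602), -0.26 for Fn1 (0.541) and -1.10 for Spock1 (0.110). The difference in Spock1 was as large with the term as without it, but the call was lost. With the term, 5.68% of all tested genes were called. The part of stromal RNA in the values of Vim and Fn1 was not tested otherwise.

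Markers of other cell types were counted in the same way. The summed level of 10 smooth muscle markers was 61.3 to 347 scaled FPKM in control, with control 1 highest, and 18.0 to 118 in cKO. Of these Tagln (64.1 ± 50.2 and 28.7 ± 15.4, limma adjusted p = 0.256) and Acta2 (35.3 ± 36.2 and 16.8 ± 10.5, limma adjusted p = 0.460) were the most abundant. None of 8 tested was called, where 14.3% of all tested genes were. For 10 endothelial markers the sum was 8.09 to 14.4 in control and 5.26 to 12.0 in cKO, with Eng at 0 in at least 1 library. Of 5 tested 0 were called, where 14.3% of all tested genes were. Egfl7 (2.08 ± 0.608 and 2.18 ± 0.688; limma adjusted p = 0.917) and Esam (2.07 ± 0.452 and 1.22 ± 0.670; 0.180) were the most abundant of them by the mean over all 8 libraries. For 6 pericyte markers the sum was 4.25 to 11.7 and 2.86 to 5.43, with Abcc9 at 0 in at least 1 library, and the 1 tested, Notch3, did not pass (4.10 ± 0.980 and 2.71 ± 0.620; limma adjusted p = 0.104).

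For 10 leukocyte markers the sum was 119 to 156 scaled FPKM in control and 81.2 to 168 in cKO. The sum leans on Cd68, the most abundant of the 10 in every library, at 80.7 to 118 in control and 52.1 to 101 in cKO. Of 7 tested 1 was called, where 14.3% of all tested genes were. It was the lysosomal membrane gene Laptm5, lower in cKO (14.0 ± 2.88 and 6.71 ± 2.85; limma adjusted p = 0.0436). The markers did not share a direction: 5 of the 7 had a positive log2 fold change (median 0.27), and 5 had a limma unadjusted p below 0.05, where 31.5% of all tested genes did. Named after their values were seen, these were Laptm5, the macrophage gene Cd68 with a negative log2 fold change (-0.58; limma adjusted p = 0.116), and with positive ones the pan-leukocyte gene Ptprc (1.12; 0.0615), Cd53 (1.14; 0.0711) and Coro1a (1.21; 0.0931). For Ptprc every cKO library lay above every control (2.02 ± 0.702 and 5.97 ± 3.07), as in 11.7% of all tested genes. Without cKO 4 the last 3 were called (limma adjusted p = 0.0355, 0.0396 and 0.0235), and without cKO 2 Cd68 was (0.0324). Over 22 alternatives Ptprc was called in 3, Cd53 and Coro1a in 2 each, and Cd68 in 4. The call of Laptm5 was lost without any 1 of controls 1 to 3 and cKO 1, 4 and 5 (highest limma adjusted p 0.183). It was also lost without a filter (limma adjusted p = 0.0815) and with the title series as a term (0.0791). In all, 11 of 22 alternatives lost the call of Laptm5. The sum of 3 mesothelial markers was 6.79, 15.3 and 7.54 in controls 1 to 3, against 1.56, 10.4, 23.1, 5.57 and 2.99 in cKO 1 to 5. None of the 3 was called, where 14.3% of all tested genes were. The most abundant were Upk3b (5.05 ± 1.88 and 5.36 ± 4.54, limma adjusted p = 0.851) and Upk1b (3.39 ± 2.13 and 2.20 ± 2.54, limma adjusted p = 0.440). Control 2 and cKO 3, the highest of their groups in these markers, were also the highest of their groups in Vim. The part of these cells in the values of the EMT genes was not tested.

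The genes whose pattern over the 8 libraries was most like that of each tested member were ranked by Pearson r of log2(scaled FPKM + 1) among all tested genes. The points share the libraries and both groups, and these values are descriptions. For Cdh1 they were the alpha-catenin gene Ctnna1 (r = 0.943), Actg1 (0.914) and Ano6 (0.909). For Vim they were Pcolce (0.967), Igfbp6 (0.966) and Dab2 (0.964). For Fn1 they were Wwc2 (0.984), Fam129a, now Niban1 (0.956), and Ppfibp1 (0.952). For Spock1 they were Plcg1 (0.966), Tbc1d12 (0.962) and the matrix gene Fbln1 (0.961), which is 1 of the stromal markers. The median r with the 12 tested stromal markers was 0.727 for Vim, 0.625 for Fn1, 0.346 for Spock1 and 0.153 for Cdh1. With the 3 mesothelial markers it was 0.849 for Vim and -0.114 for Spock1.

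Other genes of the same process were taken from lists. These lists were chosen with earlier results of these data known, and their counts of called genes are not read as properties of a list. Of 10 other EMT transcription factor genes 4 were tested, 2 were lower and none higher, where 6.98% and 7.27% of all tested genes were, with a median log2 fold change of -0.56. Sox4, a high-mobility-group factor, was at 33.0, 38.7 and 44.9 scaled FPKM in controls 1 to 3 and at 12.6, 11.7, 26.8, 9.15 and 18.0 in cKO 1 to 5. It fell from 38.9 ± 5.94 to 15.6 ± 7.0 (log2 fold change -1.34 ± 0.30; limma adjusted p = 0.0203). Tcf3, which encodes the E-box binding protein E2A, fell from 19.9 ± 1.65 to 14.5 ± 1.37 (-0.44 ± 0.10; limma adjusted p = 0.0245). Every cKO library lay below every control for both genes, as in 12.9% of all tested genes. The calls of Sox4 and Tcf3 were each lost in 6 of 22 alternatives. Among these were leaving out control 2 (limma adjusted p = 0.0868 and 0.124) or control 3 (0.0940 and 0.115), and the stromal level as a term (0.0956 and 0.102). Both were also lost in the 6 libraries whose titles share 1 number series (limma adjusted p = 0.0814 and 0.0674). With that title series as a term both had a limma adjusted p of 0.0539. Of the 6 genes too low to test, Twist2 was at 0.363 ± 0.353 and 0.313 ± 0.295, Prrx1 at 0.4115 ± 0.333 and 0.208 ± 0.150, and Gsc was listed at 0 in 6 libraries.

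All 12 genes of a list known to hold the epithelial state were tested, and 4 were higher and 1 lower, where 7.27% and 6.98% of all tested genes were. Their median log2 fold change was 0.17, against -0.0050 for all tested genes. As the list was chosen with earlier results of these data known, neither value is support for a change of these genes as a group. Ovol1, a zinc-finger factor known to restrain EMT regulators, was at 10.8, 9.27 and 8.92 scaled FPKM in controls 1 to 3 and at 27.6, 20.9, 15.6, 18.8 and 17.8 in cKO 1 to 5. It rose from 9.65 ± 0.9746 to 20.1 ± 4.58 (0.97 ± 0.17; limma adjusted p = 0.00803). The ETS factor gene Ehf rose from 53.0 ± 7.01 to 80.1 ± 9.49 (0.59 ± 0.13; limma adjusted p = 0.0199) and the grainyhead factor gene Grhl1 from 1.30 ± 0.413 to 2.62 ± 0.598 (0.66 ± 0.17; 0.0378). The matriptase gene St14, named after its values were seen, rose from 149 ± 28.9 to 213 ± 19.8 (0.53 ± 0.14; limma adjusted p = 0.0399).

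Grhl3, a relative of Grhl1, went the other way. It was at 4.71, 6.42 and 7.44 scaled FPKM in controls 1 to 3 and at 1.98, 1.39, 1.45, 1.13 and 2.36 in cKO 1 to 5. The groups did not overlap, as in 12.9% of all tested genes in this direction. It fell from 6.19 ± 1.38 to 1.66 ± 0.498 (-1.43 ± 0.18; limma adjusted p = 0.00242), and the call held in each of its 21 alternatives. The call of Ovol1 was lost in 1 of 22 alternatives, without control 3 (limma adjusted p = 0.0514). That of Ehf was lost in 5 of 22. Among these were leaving out control 2 or control 3 (highest limma adjusted p 0.103) and TPM (log2 fold change 0.39, limma adjusted p = 0.0750). Those of Grhl1 and St14 were lost in 13 of 21 and 13 of 22 alternatives. Each was lost without any 1 of 6 libraries. For Grhl1 these were controls 1 to 3 and cKO 1, 4 and 5 (highest limma adjusted p 0.142). For St14 they were controls 2 and 3 and cKO 1, 2, 4 and 5 (highest limma adjusted p 0.191). The call of Grhl1 was also lost without scaling (limma adjusted p = 0.0612), with TPM (0.0658) and without a filter (0.0661). That of St14 was also lost with TPM (log2 fold change 0.32; limma adjusted p = 0.104), with quantile normalization (0.26; 0.148) and without a filter (0.0570). In the 6 libraries whose titles share 1 number series the call of St14 was lost as well (limma adjusted p = 0.116). With that title series as a term both calls were lost (limma adjusted p = 0.0527 for Grhl1 and 0.0923 for St14).

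**Figure D4:**
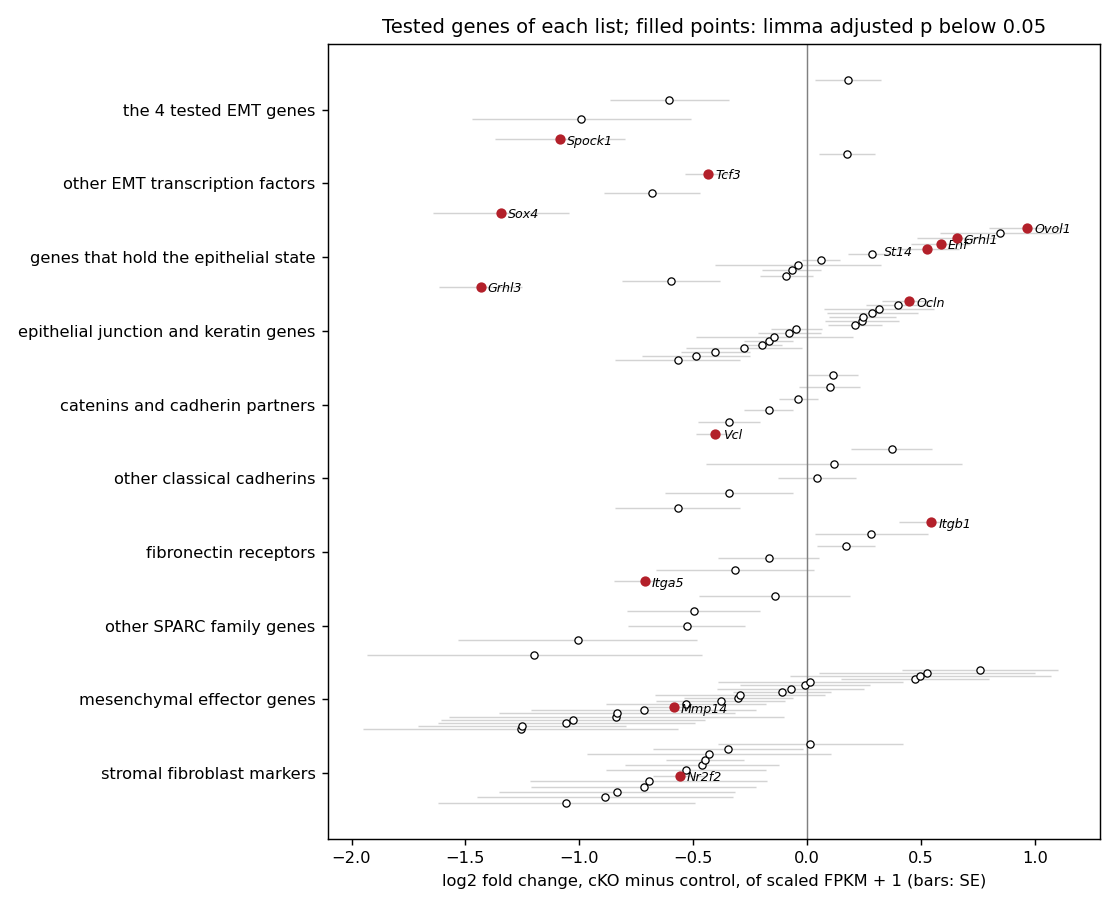
Log2 fold change (cKO minus control, of scaled FPKM + 1; grey bars are SE) of every tested gene in 10 lists, with filled points at a limma adjusted p below 0.05 and open points otherwise. Filled points lie on both sides of 0, with Ovol1, Grhl1, Ehf, St14, Ocln and Itgb1 to the right and Spock1, Sox4, Tcf3, Grhl3, Vcl, Itga5, Mmp14 and Nr2f2 to the left.

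Of 16 tested junction and keratin genes 1 was called, where 14.3% of all tested genes were, and the median log2 fold change of the 16 was -0.063. The called gene was the tight junction gene Ocln, which rose from 23.5 ± 1.31 to 32.5 ± 4.22 scaled FPKM (limma adjusted p = 0.0361). The call was lost without any 1 of controls 1 to 3 and cKO 1, 3 and 5 (highest limma adjusted p 0.149), and under each other scaling: FPKM without scaling (log2 fold change 0.39; limma adjusted p = 0.0918), TPM (0.25; 0.157) and quantile normalization (0.38; 0.0535). It was also lost in the 6 libraries whose titles share 1 number series (limma adjusted p = 0.0673) and with that title series as a term (0.0514). In all, 14 of 22 alternatives lost the call of Ocln. Among 6 tested catenins and cadherin partners 1 was called, where 14.3% of all tested genes were. It was Vcl, whose product vinculin links cadherin and integrin complexes to actin. Vcl fell from 32.8 ± 1.60 to 24.6 ± 1.71 (limma adjusted p = 0.0185). That call was lost in 5 of 22 alternatives, among them leaving out any 1 of the 3 controls (highest of these 0.0910). The catenin genes Ctnna1 (121 ± 8.45 and 132 ± 13.0; limma adjusted p = 0.501) and Ctnnb1 (407 ± 56.9 and 434 ± 34.1; 0.638), named after their values were seen, did not pass. Of 5 other tested cadherins 0 were called, where 14.3% of all tested genes were. None of the 5 had a limma unadjusted p below 0.05, where 31.5% of all tested genes did. The most abundant by the mean over all 8 libraries were Cdh13 (12.4 ± 4.36 and 16.9 ± 14.1; limma adjusted p = 0.906) and the endothelial Cdh5 (0.988 ± 0.450 and 1.55 ± 0.385; 0.186).

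Of 6 tested fibronectin receptor genes 1 was lower and 1 higher, where 6.98% and 7.27% of all tested genes were. These were Itga5 and Itgb1, which encode the alpha and beta chains of the main fibronectin receptor. Itga5 was at 17.2, 16.3 and 16.9 scaled FPKM in controls 1 to 3 and at 11.7, 11.5, 10.2, 8.50 and 7.88 in cKO 1 to 5. It fell from 16.8 ± 0.457 to 9.96 ± 1.73 (-0.71 ± 0.13; limma adjusted p = 0.0114). The call was lost in 4 of 22 alternatives (highest limma adjusted p 0.0607), among them without control 2 (0.0559) or control 3 (0.0581). Itgb1, a partner of many alpha chains, rose from 83.9 ± 7.99 to 123 ± 17.3 (0.54 ± 0.14; limma adjusted p = 0.0346), and the call was lost without any 1 of 7 libraries, all except cKO 2 (highest 0.147). It was also lost without scaling (log2 fold change 0.48, limma adjusted p = 0.0807), with TPM (0.34 and 0.139) and with quantile normalization (0.33 and 0.17). In all, 12 of 22 alternatives lost the call of Itgb1.

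Among 20 tested mesenchymal effector genes 1 was called, where 14.3% of all tested genes were. It was Mmp14, a membrane-bound metalloproteinase gene, which fell from 58.7 ± 4.43 to 39.2 ± 6.55 scaled FPKM (-0.59 ± 0.14; limma adjusted p = 0.0273). The call was lost in 8 of 22 alternatives, among them leaving out any 1 of the 3 controls or cKO 1 (highest of these, limma adjusted p 0.121). It was also lost in the 6 libraries whose titles share 1 number series (limma adjusted p = 0.0875) and with that title series as a term (0.0615). The median log2 fold change of the 20 was -0.34, and 15 were negative, as were 50.6% of all tested genes. This list shares 5 collagen genes with the stromal markers, and Acta2 and Tagln with the muscle markers. Of 5 tested SPARC family genes other than Spock1, 0 were called, where 14.3% of all tested genes were. None of the 5 had a limma unadjusted p below 0.05, where 31.5% of all tested genes did. All 5 had a negative log2 fold change (median -0.53), as did 50.6% of all tested genes. The most abundant were Sparc (47.0 ± 21.95 and 25.9 ± 20.6; limma adjusted p = 0.221) and Sparcl1 (13.2 ± 11.9 and 5.01 ± 3.83; 0.294). Des, the tested filament gene besides Vim, was at 11.7 ± 8.89 and 5.07 ± 2.68 (limma adjusted p = 0.186). Control 1 was the highest library for Sparc, Sparcl1 and Des, as it was for the stromal and muscle marker levels.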

How the data were processed

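RNA of uterine epithelium from 3 control and 5 Smad2/3 cKO libraries was analysed from the deposited tables. The submitters' processing notes name mm10, Cufflinks, TopHat and bcl2fastq 1.8.3; the sources used here give no other version, no annotation release and no strand setting. The authors deposited FPKM with an interval and a status for 34535 transcripts per library, per the file headers. FPKM was summed per symbol, 15 genes whose status was not OK were left out, and libraries were scaled by the median ratio over genes with FPKM of at least 1 everywhere (factors 0.924 to 1.06). Values of log2(scaled FPKM + 1) were tested with limma 3.58.1 (R 4.3.3), two-sided, with a variance trend, over 11315 genes with at least 1 in 3 libraries, and genes at an adjusted p below 0.05 were called. Fragment numbers and depth were estimated from the deposited intervals, taken as 2 SD to each side, and cover counting error only; no count test was run. Of the transcripts, 33548 matched RefSeq by accession.

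The members and lists were chosen with earlier results of these data known. The text names all 10 members, for each list up to 4 called genes (lowest adjusted p first) or, where none was called, the 2 most abundant over all libraries, and the 3 genes most like each tested member; other names give context. Groups come from the genotype label, and library numbers only name the libraries. In their titles cKO 1 and cKO 2 belong to a number series of their own, apart from the other 6 libraries. The alternatives were other scalings, another pseudocount, other filters, other variance models, leaving out libraries, and the title series or marker levels as terms; leaving out control 1 and cKO 3 together was chosen after seeing the data. The fit was tested on simulated data.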

Additional observations from a re-analysis of the deposited data

Results flagged for a closer look

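In the 5 cKO libraries, 54 quantities were searched for a library far from the other 4, and 3 had one, where chance flags about 1 in 20. Snai1 was at 2.34 scaled FPKM in cKO 3 against 0.352 to 0.891 in the other cKO libraries. Spock2 was at 2.11 scaled FPKM in cKO 3 against 0.2999 to 0.732 in the others. The stromal fibroblast marker level, a mean of log2(scaled FPKM + 1), was 3.72 in cKO 3 against 2.55 to 2.84 in the others.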

How the results depend on the processing

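Over 22 alternatives no EMT gene was called higher. Vim in 22 and Fn1 in the 21 that tested it kept their direction without a call. The count of EMT genes called lower, 1 as reported, was 0 with a pseudocount of 0.1, without a filter, with the filter at 5 (where Spock1 was not tested), in the 6 libraries of 1 title series, with a stromal term or stromal and muscle terms, and without control 1 and cKO 3; leaving out 1 library gave 0 to 1. The log2 fold change of Spock1 kept its direction in all 21 of its alternatives and lost the call in 11: -2.12 with a pseudocount of 0.1 (limma adjusted p = 0.0747), -1.09 without a filter (0.0640), -1.23 in the 1 title series (0.0701), -1.10 with the stromal term (0.110), -1.04 with the stromal and muscle terms (0.115), -0.68 without control 1 and cKO 3 (0.110), and 5 cases of leaving out 1 library, with values from -1.31 to -0.82. The sign turned for Cdh1 with TPM (-0.025) and quantile normalization (-0.076), for Zeb1 without control 1 and cKO 3 (0.0033) and for Zeb2 in the 1 title series (0.014). Leaving out 1 library gave -0.14 to 0.023 for Snai2, -0.10 to 0.040 for Zeb1, -0.095 to 0.022 for Zeb2 and -0.31 to -0.17 for Twist1. The stromal level difference ran from -0.82 to -0.26 on leaving out 1 library.

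Of the other named genes the sign turned for Egfl7 without scaling (-0.00083) and with TPM (-0.13), Cdh13 with TPM (-0.087) and without control 1 and cKO 3 (-0.0059), Cldn7 with quantile normalization (-0.12), Ctnna1 and Ctnnb1 with TPM (-0.090 and -0.11) and quantile normalization (-0.11 and -0.18), Acta2 with the stromal and muscle terms (0.42), Upk3b in the 1 title series (0.063), with the title series as a term (0.059) and with the stromal term (0.32), and Smad3 with TPM (-0.12), array weights (-0.019), the 1 title series (-0.18) and the title series as a term (-0.19). Leaving out 1 library gave -0.25 to 0.36 for Cdh13, -0.13 to 0.15 for Egfl7, -0.52 to 0.12 for Upk3b and -0.045 to 0.20 for Smad3. Over all tested genes, 790 were called lower and 823 higher. These counts were 1616 and 512 with TPM, which moved the median log2 fold change of all genes to -0.20, 1733 and 1793 with array weights, 296 and 347 with the stromal term, 341 and 399 with the stromal and muscle terms, 441 and 581 without control 1, 186 and 238 without control 2, and 176 and 242 without control 3. The causes were not tested. Members below 1 scaled FPKM rest on few fragments, which limits what could be detected. No paired analysis was possible because the labels give no pairing of libraries.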
